A study of Mus musculus with 2 samples.

Results

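The proteasome genes were taken as the GENCODE protein-coding genes on build mm10 whose symbols start with Psma, Psmb, Psmc, Psmd, Psme, Psmf or Psmg followed by a digit. The rule found 50 genes of 21938 protein-coding gene records. The assay was DNase-seq, which digests open chromatin with the nuclease DNase I and sequences the resulting ends, and the tissue was the gastrocnemius, a large calf muscle. All tissue came from female B6CASTF1/J mice, F1 hybrids between the strains C57BL/6J and CAST/EiJ, at 2 months of age, with no treatment or engineered allele named. The 2 libraries form 1 group and are called replicate 1 and replicate 2. The labels give them different biosamples but 1 donor identifier, so the spread between them may be partly technical.

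The proteasome is the protease that degrades most ubiquitin-tagged proteins in the cell and is a main route of protein loss in wasting muscle. Its 20S core is a stack of outer alpha rings and inner beta rings, and only the subunits beta1, beta2 and beta5 cut peptide bonds. The 19S cap recognises, unfolds and feeds in substrates with a ring of ATPases and a set of other subunits, while the PA28 and PA200 activators open the core without the cap. In the immunoproteasome, which is abundant in immune cells and induced by interferon elsewhere, beta1i (Psmb9), beta2i (Psmb10) and beta5i (Psmb8) take the places of beta1 (Psmb6), beta2 (Psmb7) and beta5 (Psmb5).

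For each library the longer of its peak lists was used, with 66984 peaks in replicate 1 and 258342 in replicate 2, and 153010 and 338761 footprints. A promoter peak was a peak within 1 kb of any annotated transcript start of the gene. The strength of a promoter is given as the percentile of its strongest promoter peak among all peaks of the same library, by the authors' signal value, with 0 where there was no peak. The scale of that signal and the sequencing depth are unknown, so percentiles are compared within a library only. All 8 muscle marker genes examined, among them Acta1, Ckm and Mylpf, had a promoter peak in both libraries. The share of all protein-coding genes with peaks in each library was 60.2%. In bulk tissue a lower signal can mean fewer cells with an open site or a less open site in each cell, and these cannot be told apart.

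The sequences under the strongest promoter peaks of 5 catalytic subunits are shown first, because the comparison of constitutive with immunoproteasome subunits turns on them. They are the GRCm38.p6 reference sequence from RefSeq, so CAST/EiJ alleles in these hybrids may differ. Each runs 5′ to 3′ on the strand of the gene over the stretch that the strongest peaks of both libraries share. Stretches end at most 30 bases past the annotated start nearest to the peak. Capitals mark bases that lay in a footprint, a short stretch with fewer cuts than its open surroundings, in both libraries.
Psmb5, constitutive beta5, chr14:54617993-54618120, minus strand: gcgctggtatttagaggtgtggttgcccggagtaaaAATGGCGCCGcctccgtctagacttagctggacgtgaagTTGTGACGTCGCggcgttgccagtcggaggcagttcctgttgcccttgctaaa
Psmb6, constitutive beta1, chr11:70525261-70525396, plus strand: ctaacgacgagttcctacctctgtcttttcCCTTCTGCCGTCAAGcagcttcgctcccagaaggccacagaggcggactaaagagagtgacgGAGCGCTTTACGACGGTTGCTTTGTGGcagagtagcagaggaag
Psmb8, immunoproteasome beta5i, chr17:34197581-34197750, plus strand: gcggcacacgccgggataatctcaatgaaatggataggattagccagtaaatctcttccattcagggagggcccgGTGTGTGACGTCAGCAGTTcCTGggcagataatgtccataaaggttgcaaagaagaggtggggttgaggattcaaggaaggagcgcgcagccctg
Psmb9, immunoproteasome beta1i, chr17:34187452-34187481, minus strand, a stretch inside exon 1 of a longer protein-coding transcript, of which only the 30 bases richest in footprints are printed: CCTCTGTcGTCACCTGTCTCTGGGCAgatt
Psmb10, immunoproteasome beta2i, chr8:105937009-105937240, minus strand: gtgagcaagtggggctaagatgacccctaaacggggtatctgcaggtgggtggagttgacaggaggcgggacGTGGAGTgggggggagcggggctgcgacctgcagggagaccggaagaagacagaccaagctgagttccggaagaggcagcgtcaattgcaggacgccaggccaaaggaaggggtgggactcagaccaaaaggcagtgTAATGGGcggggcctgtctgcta

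Footprints seen in both libraries covered 22 of the 128 bases printed for Psmb5 and 42 of the 136 for Psmb6. They covered 22 of the 170 bases for Psmb8 and 14 of the 232 for Psmb10. The capitals in Psmb5 include TGACGTCGC at bases 79 to 87 of the stretch, a match to the antioxidant response element TGACNNNGC, the class of site through which the factors NFE2L1 and NFE2L2 are known to act on proteasome genes. Psmb6 has the same kind of match at bases 88 to 96, of which 4 bases lay in footprints of both libraries. Psmb10 also has such a match, at bases 148 to 156, with 0 bases in footprints of both libraries. No sequence was searched for Psmb7. Psmb8 holds no such match there, and its capitals include TGACGTCA, the cyclic AMP response element, at bases 81 to 88. The cyclic AMP element was added to the motif list after these letters had been seen. The letters TGACGTCG in Psmb5 differ from it in the last base only. Which factor lay on these letters was not tested.

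Proteasome genes had open promoters in this muscle almost throughout. A promoter peak was present in both libraries at 47 of the 50 genes (94%), against 60.2% of all protein-coding genes. In replicate 1 alone 47 proteasome genes had one, against 60.8% of all genes, and in replicate 2 alone 48 had one, against 71.1%. The strongest peaks of the libraries overlapped each other at all 47 genes, and at 12353 of the 13205 protein-coding genes with a peak in both libraries. The genes without a peak in both libraries were Psma8, Psmb11 and Psme2b.

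The median proteasome gene reached the signal percentile 90.1 in replicate 1 and 97.2 in replicate 2, which gives a mean of 93.7 ± 5.05 (SD, n = 2 libraries). That SD is taken over peak lists of unequal length. With equal numbers of strongest peaks from each library the medians were 90.1 and 89.4, with an SD of 0.514. The medians over all protein-coding genes were 62.6 and 90.9.  Among all genes with a promoter peak in both libraries the medians were 87.97 and 97.02. A percentile over 90 was reached by 26 proteasome genes in replicate 1 and 47 in replicate 2, that is 52% and 94%, against 26.5% and 51.4% of all genes. Among genes with a peak in both libraries the shares lay closer. They were 55.3% and 100% of proteasome genes, against 44.0% and 85.0% of all such genes. Ranked among all protein-coding genes instead of among peaks, the median proteasome gene stood at percentile 73.7 in replicate 1 and 71.5 in replicate 2.

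**Figure D1:**
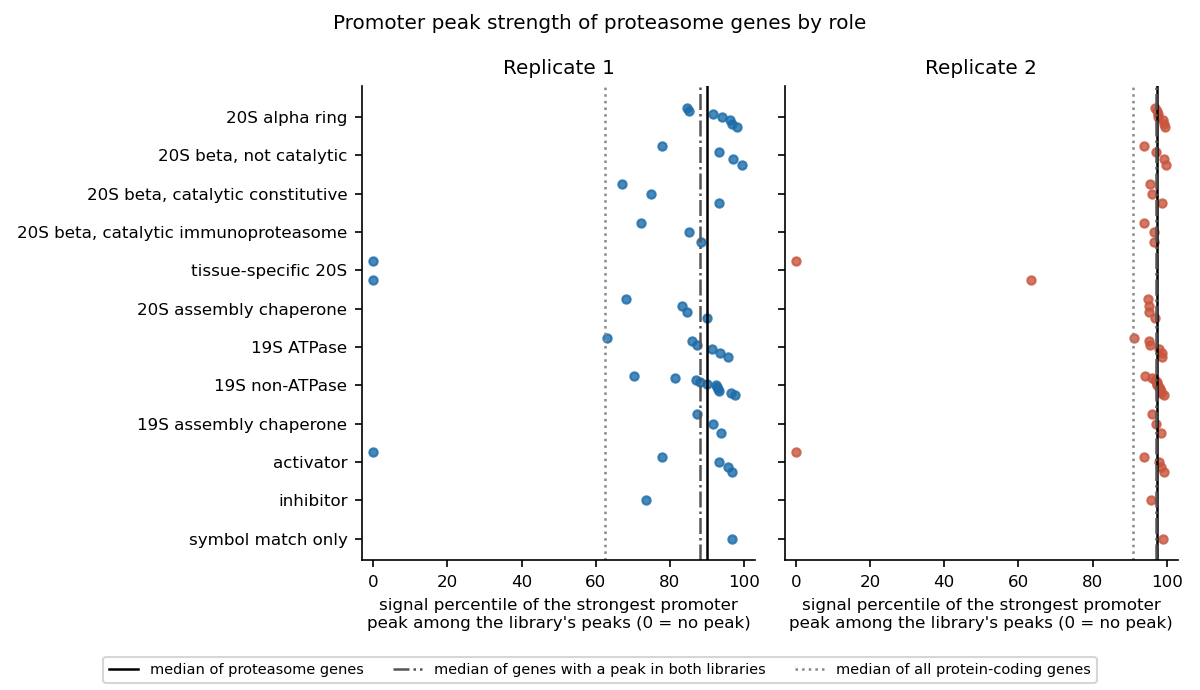
Signal percentile of the strongest promoter peak (horizontal axis, 0 where no peak was found) for each proteasome gene (points), by role, in replicate 1 (left) and replicate 2 (right). Vertical lines are medians; the proteasome genes sit at a median of 90.1 and 97.2, and the genes at 0 are Psma8 and Psme2b in both libraries and Psmb11 in replicate 1.

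The peaks sat close to the annotated starts. The midpoint of the strongest peak lay a median of 26 bp from a start of the gene in replicate 1 and 20.5 bp in replicate 2, against 62 and 65 bp over all genes with a peak. Within 150 bp of a start lay 46 of 47 strongest peaks in replicate 1 and 45 of 48 in replicate 2, that is 97.9% and 93.8%, against 76.7% and 73.3% over all genes. A start of another protein-coding gene on the opposite strand lay within 1 kb for 13 of the 50 proteasome genes (26%), against 12.3% of all genes and 18.99% of genes with a peak in both libraries. Such pairs included Psma2 with Mrpl32, Psmb1 with Tbp and Psmc2 with Dnajc2, and in these 3 cases the strongest peak was nearest to the start of the partner. The same held for Psme2 with Rnf31 in both libraries. It also held for Psma7 with Ss18l1 in replicate 1, and for Psmd13 with Sirt3 and Psmg2 with Cep76 in replicate 2. For all these pairs the signal cannot be assigned to 1 gene of the pair.

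The 7 subunits of the alpha ring, which gates the entry to the core, all had a promoter peak in both libraries. By the mean of both libraries Psma5 (alpha5) stood highest, at percentiles 98.1 in replicate 1 and 99.3 in replicate 2, where Psma3 (alpha7) was higher at 99.5. Psma7 (alpha4) stood lowest, at 84.6 and 96.7. The whole ring therefore lay at or above 84.6 in replicate 1 and 96.7 in replicate 2.

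All 4 beta subunits without catalytic activity were open in both libraries. Psmb3 (beta3) had the highest mean of any proteasome gene, at 99.3 in replicate 1 and 99.8 in replicate 2, with authors' signal values of 9.72 and 27.8. It also carried 14 and 15 footprints, against medians of 5 in each library over the proteasome genes. Psmb4 (beta7) was the lowest of the 4, at 77.8 and 93.8, with 5 and 2 footprints.

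Psmb3 is printed beside Psmc1, the proteasome gene with the lowest percentile among those with a peak in both libraries, because they mark the ends of the range. The marking is as above, and both are on the plus strand.
Psmb3, beta3, chr11:97703301-97703428: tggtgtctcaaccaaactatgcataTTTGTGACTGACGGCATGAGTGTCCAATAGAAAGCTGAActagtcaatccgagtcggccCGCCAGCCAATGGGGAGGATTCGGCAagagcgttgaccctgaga
Psmc1, 19S ATPase, chr12:100110072-100110183: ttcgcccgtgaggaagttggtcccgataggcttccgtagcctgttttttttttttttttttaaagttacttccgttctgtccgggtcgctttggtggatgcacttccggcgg
In Psmb3 footprints of both libraries covered 65 of 128 bases, in 2 blocks. The second block includes CCAATGG at bases 91 to 97, a match to the CCAAT box that the factor NF-Y binds. In Psmc1 no base of the stretch lay in a footprint of both libraries, and 17 of its 112 bases lay in one of replicate 2.

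The 6 ATPases of the 19S cap were all open. Psmc4 stood highest, at 95.7 in replicate 1 and 98.7 in replicate 2. Psmc1 stood lowest, at 63.1 and 91.2, with 2 and 4 footprints of which none was shared. All 11 other subunits of the cap were open as well. Among them Psmd4, the ubiquitin receptor known as Rpn10, stood highest at 97.5 and 99.3, and Psmd1, the scaffold known as Rpn2, lowest at 70.2 and 94.2.

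The assembly factors, which are not part of the finished particle, were open as well. The 3 chaperones of the 19S base, Psmd5, Psmd9 and Psmd10, all had a promoter peak in both libraries. Psmd9 was highest at 93.8 in replicate 1 and 98.4 in replicate 2, and Psmd10, also known as gankyrin, was lowest at 87.4 and 96.1. The 4 chaperones of the 20S core were open too, with Psmg1 highest by the mean of both libraries, at 90.1 and 95.1, and Psmg2 lowest at 68.1 and 95.0. In replicate 2 Psmg4 was higher than Psmg1, at 96.8. In replicate 2 all 4 lay below the median of 97.2 over the proteasome genes.

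Among the activators, Psme1 and Psme2, which encode the interferon-inducible PA28 subunits alpha and beta, lie 5911 bp apart. Psme1 stood at 78.0 in replicate 1 and 93.8 in replicate 2, and Psme2 at 96.6 and 99.2. The strongest peak counted for Psme2 was centred at -608 bp in replicate 1 and -568 bp in replicate 2 from its own nearest start, and in replicate 1 lay 13 bp from a start of Rnf31, which runs in the opposite direction. Psme3 (PA28 gamma, a nuclear activator) stood at 93.2 and 97.8 and Psme4 (PA200) at 95.6 and 98.4. Psmf1, which encodes the inhibitor PI31, stood at 73.6 and 95.6 with 2 and 5 footprints.

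The 3 genes without a peak in both libraries include both tissue-specific subunits of the core. Psma8 encodes a testis alpha subunit and had no promoter peak and no footprint in either library. Psme2b, a single-exon relative of Psme2, had none in either library. Psmb11 encodes beta5t, the catalytic subunit of the thymus, and had no peak and no footprint in replicate 1. In replicate 2 it had a peak of signal 0.510 at percentile 63.3, centred at -230 bp from its nearest start, and 3 footprints. Its gene record begins 3410 bp from that of Psmb5, on the opposite strand. Psmc3ip, whose product acts in meiotic recombination and is no proteasome subunit, meets the symbol rule only, and stood at 96.8 and 98.8.

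The catalytic subunits were not the most strongly marked genes of the core. With all annotated starts counted, the difference between constitutive and immunoproteasome genes had no common sign in the libraries, whereas with fewer starts counted it had one. Every one of the 6 had a promoter peak in both libraries. Psmb6, Psmb7 and Psmb5 averaged the percentile 78.4 in replicate 1 and 96.8 in replicate 2, and Psmb9, Psmb10 and Psmb8 averaged 81.9 and 95.6. The difference, constitutive minus immunoproteasome, was -3.54 in replicate 1 and 1.12 in replicate 2, which gives a mean of -1.21 ± 3.30 (SD, n = 2 libraries). It was thus smaller than the spread between libraries and of opposite sign in them. An exact two-sided sign-flip permutation test of the within-library differences gave p = 1, and with 2 libraries its smallest possible p is 0.5.

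The pairs that share a catalytic site differed from each other. For beta1, the caspase-like site, Psmb6 stood at 93.2 in replicate 1 and 98.7 in replicate 2, against 85.2 and 96.5 for Psmb9. For beta5, the chymotrypsin-like site, Psmb5 stood at 74.8 and 96.1, against 72.3 and 93.7 for Psmb8. In both pairs the constitutive gene was higher in both libraries, by 5.10 ± 4.12 and 2.46 ± 0.118 points (SD, n = 2 each). For beta2, the trypsin-like site, Psmb7 stood at 67.1 and 95.5, against 88.3 and 96.6 for Psmb10, so the immunoproteasome gene was higher in both libraries.

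The Psmb10 value depends on which starts are counted. Its strongest peak, chr8:105936921-105937360 in replicate 1 and chr8:105937001-105937240 in replicate 2, lay in intron 4 of its only protein-coding transcript. Its midpoint was 1304 and 1324 bp downstream of the 5′ end of that transcript and beside starts of transcripts annotated as retained introns or processed transcripts. The strongest peak within 1 kb of the protein-coding start was weaker, chr8:105938041-105938100 in replicate 1 and chr8:105937961-105938180 in replicate 2, both centred in exon 1. It was centred 374 bp downstream of that start in both libraries and did not cover it. Other annotated starts of the gene lay at 340 and 352 bp. With the 5′ end of the gene record only, or with protein-coding starts only, an alternative chosen after these values were seen, Psmb10 stood at 51.8 and 85.0. The difference, constitutive minus immunoproteasome, then became 8.61 in replicate 1 and 4.99 in replicate 2, which gives a mean of 6.80 ± 2.56 (SD, n = 2 libraries). The same exact permutation test gave p = 0.5, the smallest it can give. With protein-coding starts no other proteasome gene changed its percentile.

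**Figure D2:**
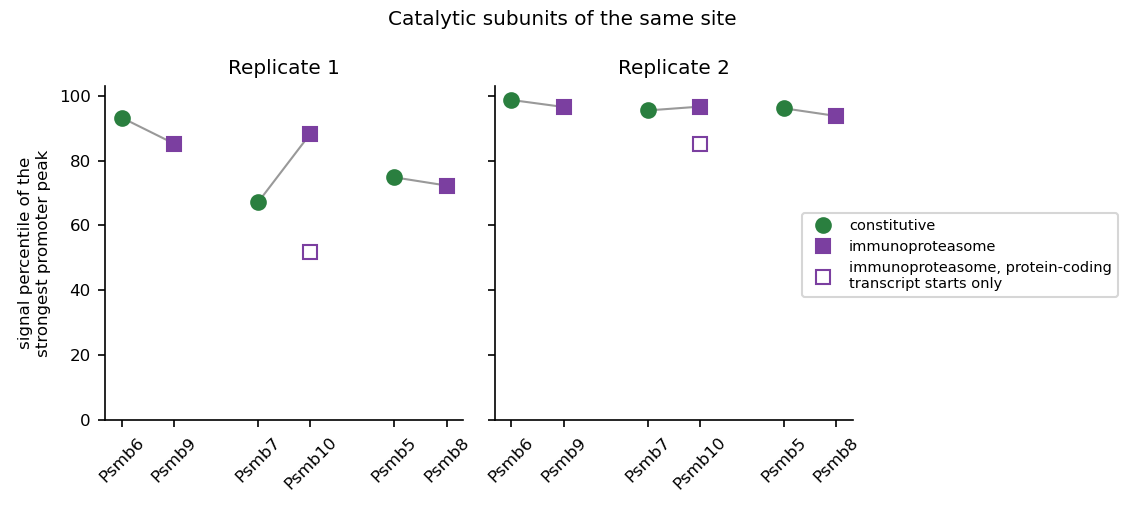
Signal percentile of the strongest promoter peak (vertical axis) for the constitutive subunit (circle, left) and immunoproteasome subunit (square, right) of each catalytic site, by library. The open square is Psmb10 with protein-coding transcript starts only; it falls to 51.8 in replicate 1 and 85.0 in replicate 2, against 88.3 and 96.6 with all starts.

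**Figure D3:**
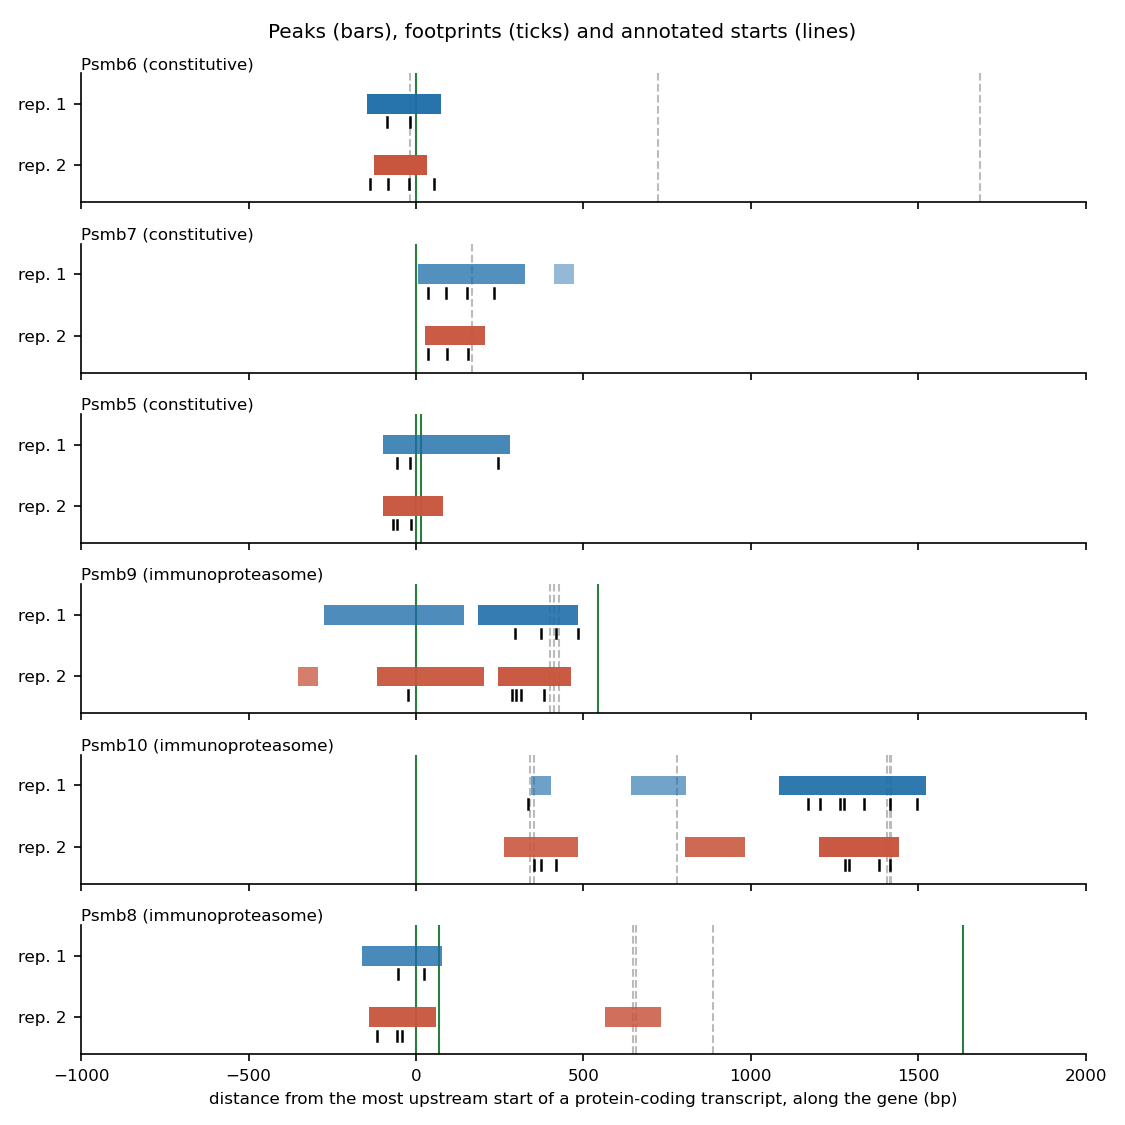
Promoter peaks (bars, darker for a higher signal percentile), footprints (black ticks under the bars), protein-coding transcript starts (solid lines) and other starts (dashed lines) of the 6 catalytic genes, by distance along the gene from the most upstream protein-coding start. The bars of the 3 constitutive genes and of Psmb8 reach to within 30 bp of that start or cover it, whereas the darkest bar of Psmb10 begins 1084 bp and 1204 bp downstream of it.

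Psmb8 and Psmb9 lie 9956 bp apart in the major histocompatibility complex, beside the peptide transporter genes Tap1 and Tap2. The 5′ ends of Psmb9 and Tap1 are 211 bp apart on opposite strands, and the same peak was the strongest for both genes, so that Tap1 also stood at 85.2 and 96.5. All 13 genes listed for antigen presentation and interferon signalling were open at the promoter in each library. Their median percentiles were 94.0 in replicate 1 and 98.3 in replicate 2. Of all protein-coding genes 60.2% were open in each library, with medians of 87.97 and 97.02 among those open genes. Of 12 markers of immune cells, in which the immunoproteasome is abundant, 1 had a promoter peak in replicate 1 and 8 had one in replicate 2, against 60.8% and 71.1% of all protein-coding genes. Their percentiles ran up to 55.5 in replicate 1 and 92.1 in replicate 2, and Ptprc, Cd3e, Itgam and Lyz2 had no peak in either library. The part of immune cells in the immunoproteasome peaks was not tested.

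Footprints were found at every proteasome promoter with a peak in both libraries. Most other such promoters had them too. Of 13205 genes with a peak in both libraries, 268 lacked a footprint in replicate 1 and 91 in replicate 2. Over all 50 genes the median was 5 footprints per gene in each library, against 3 and 4 over all protein-coding genes and 6 in each library over genes with a peak in both. Per kb of promoter window, the 47 proteasome genes with a peak in both libraries had medians of 1.22 in replicate 1 and 1.08 in replicate 2, against 1.24 and 1.47 over all such genes. By the sum over both libraries Psme2 had most, with 13 in replicate 1 and 23 in replicate 2, followed by Psmb3 with 14 and 15 and Psme1 with 8 and 15; in replicate 1 alone Psmb3 had most. The fewest were the 0 of Psma8 and Psme2b and the 3 of Psmb11. The promoter window of Psme2 spans 4510 bp and that of Psme1 4626 bp, against a median of 4088.5 bp over the proteasome genes. Per kb, Psme2 had 2.88 footprints in replicate 1 and 5.10 in replicate 2, against medians of 1.203 and 1.073.

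Of the 262 footprints at proteasome promoters in replicate 1, 56.1% overlapped a footprint of replicate 2, and of the 275 in replicate 2, 54.5% overlapped one of replicate 1. Over genes with a peak in both libraries these shares were 52.4% and 45.6%, and over the proteasome genes among them 56.1% and 55.1%. The constitutive catalytic genes averaged 3 and 3.33 footprints and the immunoproteasome genes 4.67 and 5. The difference, constitutive minus immunoproteasome, was -1.67 in both libraries. By count the beta5 pair ran the other way in replicate 1, with 3 footprints at Psmb5 and 2 at Psmb8, and had 3 at each in replicate 2. Per kb of window the medians were 1.49 and 1.38 for the constitutive genes and 0.846 and 1.06 for the immunoproteasome genes. The pairs had no common order per kb. Psmb5 had more than Psmb8, with 1.49 in each library against 0.550 and 0.826. Psmb10 had more than Psmb7, with 2.34 and 2.05 against 1.85 and 1.38. Psmb9 had more than Psmb6 in replicate 1 (0.846 against 0.540) and fewer in replicate 2 (1.06 against 1.08). In Psmb10 the 8 and 7 footprints include those in the intronic peak. Of the footprints counted in replicate 1, 7 of 9 at the constitutive genes and 5 of 14 at the immunoproteasome genes recurred in replicate 2. In the opposite direction 7 of 10 and 7 of 15 recurred.

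The authors' segments with a false discovery rate of the cut rate of 0.05 or below give a further measure of how far a promoter is open. They covered a median of 757.5 bases of the proteasome promoters in replicate 1 and 861.5 in replicate 2, or 18.5% and 20.9% of the promoter windows. All genes with a peak in both libraries had medians of 17.8% and 25.0%, and the proteasome genes among them 18.8% and 21.8%. Most proteasome genes were covered alike in both libraries, but a few were covered far more widely in replicate 2. These were Psmg3, with 21.3% in replicate 1 and 91.3% in replicate 2, Psme1 with 14.2% and 78.4%, Psme2 with 30.6% and 84.9%, Psmb3 with 35.6% and 76.1%, and Psmc5 with 27.9% and 63.1%. They were named after their values had been seen. A coverage of 60% or more was found at 6 of the 50 proteasome genes (12%) in replicate 2 and at 0 in replicate 1. The sixth was Psmg2, with 54.3% and 61.3%. Over all protein-coding genes such a coverage was found at 7.64% in replicate 2 and 3.04% in replicate 1. Over all genes with a peak in both libraries the shares were 11.4% in replicate 2 and 4.99% in replicate 1. The part of the longer lists of replicate 2 in these values was not tested.

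**Figure D4:**
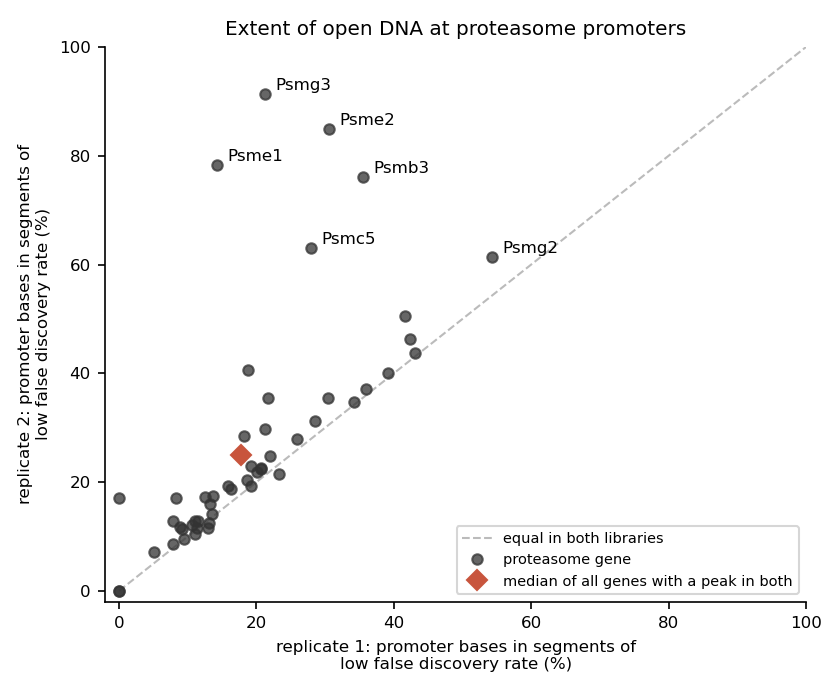
Share of each proteasome promoter window in segments of low false discovery rate in replicate 1 (horizontal axis, percent) and replicate 2 (vertical axis, percent); the diamond is the median of all genes with a promoter peak in both libraries (17.8 and 25.0). Most points lie near the line of equal values, and Psmg3, Psme1, Psme2, Psmb3 and Psmc5 lie far above it.

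Promoter letters set the proteasome genes beside other open promoters in CpG content but not in all motifs. RefSeq promoter sequences, from 250 bases before to 50 after a start, matched 42 of the 50 genes and 16522 genes in all. The median observed over expected CpG ratio was 0.749 in the proteasome genes, 0.598 in all genes and 0.768 in genes with a peak in both libraries. Psmb5 and Psmb6 had ratios of 0.999 and 0.727, against 0.523 for Psmb8, 0.5996 for Psmb9 and 0.192 for Psmb10. The sequence taken for Psmb8 starts downstream of its peak, and that for Psmb10 is at the 5′ end of the gene and not at its strongest peak.

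Motifs were searched on both strands, and matches to different motifs may overlap. The ETS letters CCGGAAG were in 14 of 42 proteasome promoters (33.3%), against 12.3% of all promoters. In windows of 150 bp centred on the strongest promoter peak they were in 15 of 40 (37.5%), against 14.0% of 10306 genes. The 15 include Psmc3ip, which is no proteasome subunit and holds several matches, among them a match in a footprint of both libraries. Of the 14 subunits of the 19S cap among these 40 genes, 9 held it, a split looked at after the list had been seen. They were Psmc1, Psmc2, Psmc6, Psmd2, Psmd6, Psmd11, Psmd12, Psmd13 and Psmd14. Of the 5 catalytic genes searched, Psmb10 held it. Of the 19 ETS matches in these windows 26.3% lay in a footprint in each library, against 32.4% and 36.1% of the matches of all genes. A match is counted as in a footprint when at least 50% of it is covered.

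The YY1 letters AANATGGCG were in 4 of 42 proteasome promoters (9.52%), against 3.47% of all, and Psmb5 and Psmb6 were among the 4. The antioxidant response element TGACNNNGC was in 6 of 42 (14.3%), against 13.3% of all, and in the windows centred on peaks in 6 of 40 (15%), against 9.54%. Psmb5 and Psmb6 held it in both kinds of window, Psmb10 only in the window on its intronic peak, and in Psmb5 it lay in a footprint in both libraries. Of the 6 matches in windows centred on peaks, 33.3% lay in a footprint in replicate 1 and 50% in replicate 2. Of the matches of all genes, 33.4% and 39.1% did. The interferon-stimulated response element GAAANNGAA was in 6 of 42 (14.3%), against 8.35%, and in none of the catalytic genes searched. Those promoter windows miss the strongest peaks of Psmb8 and Psmb10, and Psmb7 was not searched. In the windows centred on peaks it was in 3 of 40 (7.5%), against 2.07%, and again in none of the catalytic genes searched. The SP and KLF letters GGGGCGG were in 9 of 42 (21.4%), against 32.2%, and the muscle E-box letters CAGCTG in 3 of 42 (7.14%), against 15.2%. No test of these shares was made. The NF-Y letters, which are CCAAT followed by C or G and then by A or G, were in 21.4% against 20.3%, and the TATA box letters TATAAA in 9.52% against 12.9%. The NRF1 letters GCATGCGC were in 7.14% against 3.76%, the AP-1 letters TGANTCA in 4.76% against 7.10%, the heat shock letters TTCNNGAA in 4.76% against 7.54%, and the NF-kappaB motif in 2.38% against 4.76%. The MEF2 motif, bound by muscle factors, was in 0 of 42 promoters, against 2.87%, which says only that its letters are not in these windows. The cyclic AMP response element TGACGTCA was in the peak window of Psmb8 alone (2.5% of 40), against 2.68% of all, and lay in a footprint in both libraries. Of the matches to this element in all genes, 87.5% lay in a footprint in replicate 1 and 88.3% in replicate 2.

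**Figure D5:**
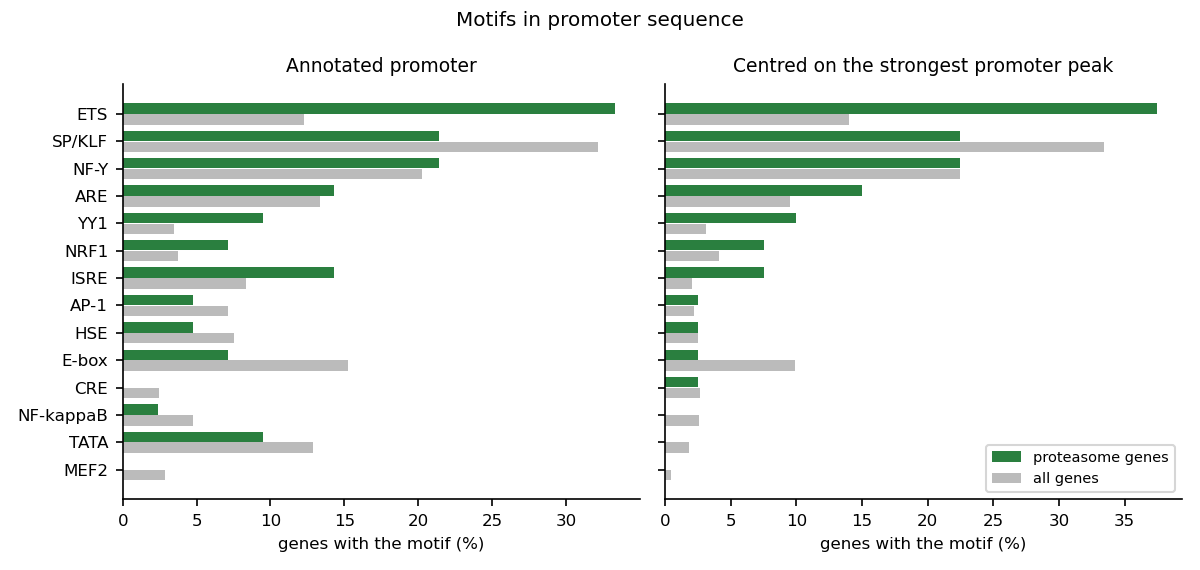
Share of proteasome genes (green) and of all genes (grey) with each motif, in percent, in annotated promoter sequence (left) and in windows centred on the strongest promoter peak (right). The ETS motif shows the widest gap, 33.3% against 12.3% on the left and 37.5% against 14.0% on the right, and the SP/KLF motif lies the other way, 21.4% against 32.2% on the left.

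Genes that work beside the proteasome but do not carry its symbols were open as well. Of 24 such genes listed, 23 were found in the annotation, and all 23 were open at the promoter in each library. Their median percentiles were 92.0 in replicate 1 and 98.1 in replicate 2. Over all protein-coding genes the share open in each library was 60.2%. The medians of those open genes were 87.97 and 97.02, so the value in replicate 2 lay close to that of open promoters in general. Nfe2l1, which encodes the factor that raises proteasome gene expression when proteasome activity falls short, stood at 99.9 and 99.96 with 15 and 23 footprints. Vcp, the ATPase that extracts ubiquitinated proteins, stood at 99.7 and 99.9. Adrm1, a ubiquitin receptor of the 19S cap, stood at 96.8 and 98.7, and Pomp, which matures the 20S core, at 83.5 and 97.1. Uba1, the main ubiquitin-activating enzyme, stood lowest of the 23 in both libraries, at 68.1 and 93.2.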

How the data were processed

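DNase-seq peaks, footprints and cut-rate segments of 2 libraries were used. Positions are on mm10, per the labels. The README files say that the peaks of a library come from its own filtered alignments. Names and versions of the aligner and peak caller were not given in the sources used here. The deposited peak lists hold the authors' signal value for each peak, whose scale is not stated. The deposited segment files hold a p-value column, taken here as a false discovery rate, with values up to 0.05 only. The footprint files have a p-value column that the authors set to 0.01 in every row. Depth is unknown.

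Every protein-coding gene record of GENCODE release M21 was scored in the same way, and the proteasome genes were read from that table. Windows ran 1000 bp either side of each annotated start. Footprints were counted by midpoint and shared footprints by an overlap of at least 1 bp. With 1 group no test between groups was made. Within-library differences were tested by exact sign-flip permutation. The members and lists were chosen with earlier results of these data known. Values were printed for the catalytic subunits, Psmb11, Psma8, genes without a peak in both libraries, the highest and lowest gene of each role, and the 3 genes with most and 3 with fewest footprints. Counts were checked with bedtools 2.31.1 and functions on simulated data. Python 3.11.15, numpy 2.4.6, pandas 2.3.3, pysam 0.24.0 and matplotlib 3.10.9 were used. Alternatives changed the window, the starts, the peak list and the libraries. RefSeq promoter entries were not matched for Psma8, Psmb1, Psmb2, Psmb7, Psmc3, Psmd3, Psmd7 and Psmg2.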

Additional observations from a re-analysis of the deposited data

How the results depend on the processing

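No paired analysis was possible because the libraries form 1 group and replicate numbers pair no samples across groups. The differences between constitutive and immunoproteasome genes were taken within each library. The count of 47 open proteasome promoters stayed between 43 and 48 under every alternative run, with 43 when only the 5′ end of the gene record counted, where Psma6, Psmd5, Psmd9 and Psmf1 had none. The median percentile ran between 89.1 and 97.2 over its alternatives. The difference in mean percentile, constitutive minus immunoproteasome, was 6.80 with the 5′ end of the gene record only and also 6.80 with protein-coding starts only, against -1.21. In both cases Psmb10 was read at the peak centred 374 bp downstream of its 5′ end. For this difference in mean percentile, the other alternatives were as follows. The difference was 0.395 with equal numbers of strongest peaks and ran from -3.54 to 1.12 when a library was left out. The median footprint count fell to 4.25, against 5, with the 5′ end only and also with footprints inside promoter peaks only. The share of footprints found in both libraries was 45.5% when a larger part of each footprint, at least 50%, had to overlap and 65.6% inside peaks of both libraries, against 55.3%. Bases in segments had a median of 735.5 at a false discovery rate of 0.01, against 809.5. In windows centred on peaks in place of annotated promoters, the number of genes with a match was 1 against 2 for AP-1, 3 against 6 for the interferon element, 0 against 1 for NF-kappaB, 0 against 4 for TATA, 1 against 2 for the heat shock element, 1 against 3 for the E-box and 1 against 0 for the cyclic AMP element. All other values, 44 of 58, moved by no more than the spread between libraries or, for counts, by no more than 1.5 times. With 2 libraries, leaving 1 out never moves a mean by more than that spread, so those values could not count as moved. The count of 47 of 50 genes could not rise by 1.5 times either. The 2 libraries differ in list length, so footprint and peak numbers cannot be compared between them, and depth per promoter is unknown.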
